A study of Mus musculus with 15 samples.

Results

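The genes described here are the 9 JAK and STAT genes Jak1, Jak2, Jak3, Stat2, Stat3, Stat4, Stat5a, Stat5b and Stat6. They were taken by gene symbol from a table of 23284 entries, in a choice made with earlier results of these data known. The table holds RNA-seq levels of mouse CD8 T cells in 15 libraries, 3 for each of 5 sorted populations. All cells came from OT-I mice, whose transgenic T cell receptor recognises the ovalbumin peptide SIINFEKL. The age and sex of the mice were not given in the sources used here. For the 4 cultured populations, CD8 T cells isolated by negative selection were started on bone marrow-derived dendritic cells carrying that peptide and kept in vitro for 14 days. IL-2 cells received IL-2 and were sorted as CD44+CD62L-. Cocktail cells received IL-7, IL-21, 2-deoxyglucose, which blocks glycolysis, and TWS119, which inhibits the kinase GSK3. They were sorted as CD44+CD62L-, CD44+CD62L+ or CD44loCD62L+. Naive OT-I cells spent 0 days in vitro. Their gate reads CD44loCD62L+ in the sample labels and CD44-CD62L+ in the study design. The 3 libraries of a population are technical replicates, so SDs and p-values measure the spread between these libraries and not between mice or cultures. At which step they were divided was not given in the sources used here.

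Janus kinases (JAKs) are tyrosine kinases that sit on the inner tails of cytokine receptors. When a cytokine joins the receptor chains, the JAKs phosphorylate the receptor and then STAT proteins, which pair, enter the nucleus and switch genes on. In CD8 T cells, receptors that hold the common gamma chain, among them those for IL-2, IL-7 and IL-21, use Jak1 and Jak3. Only RNA was measured here, so no value below reports protein or phosphorylation. Because the samples are bulk, fewer cells that express a gene and less RNA per cell cannot be told apart.

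The promoters of Jak1 and Stat2 are shown because these are the genes whose RNA changed, by the thresholds given further on. Sequences are from RefSeq on GRCm38.p6, 5' to 3' on the strand of the gene. Those of Stat2 and Jak1 stop before the transcribed part, while the Stat4 site lies inside the gene as GENCODE annotates it. The capitals mark a match to the interferon-stimulated response element (ISRE), the motif bound by the interferon transcription complex ISGF3, which holds Stat2 and Irf9.
Stat2 promoter, chr10:128270248-128270497, plus strand: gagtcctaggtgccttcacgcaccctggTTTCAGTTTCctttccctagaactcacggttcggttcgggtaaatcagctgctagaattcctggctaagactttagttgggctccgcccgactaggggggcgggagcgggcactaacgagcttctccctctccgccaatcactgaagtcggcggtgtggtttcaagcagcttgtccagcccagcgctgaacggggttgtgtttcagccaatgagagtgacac
Jak1 promoter, chr4:101265283-101265473, minus strand: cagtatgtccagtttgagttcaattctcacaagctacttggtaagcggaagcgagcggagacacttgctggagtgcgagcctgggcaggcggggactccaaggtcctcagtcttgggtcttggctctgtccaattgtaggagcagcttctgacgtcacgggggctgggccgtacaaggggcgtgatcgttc
Stat4 site, chr1:52008133-52008162, plus strand: aatgtcttcaGAAAGTGAAAtttagaacgg
The ISRE was searched as GAAANNGAAA on both strands, which reads TTTCNNTTTC on the other. All 9 genes matched the RefSeq promoter table, with 12 windows of 300 bases around their start sites. The motif was found in 2 of the 12 windows, those of Stat2 and Stat4, against 3.44% of the 32851 mouse windows in the table. The Stat2 match starts 222 bases before the RefSeq start and reads in the reverse orientation. The Stat4 match lies 97 bases before a second RefSeq start at position 52008240, which is 21092 bases inside the gene as GENCODE annotates it. The gamma-activated site, the motif of STAT pairs, was searched as TTCNNNGAA, which is its own reverse complement. It was in 0 of the 12 windows and in 8.30% of all windows. A match is a description of the letters and not evidence of binding.

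In the GENCODE annotation of GRCm38, 3 of the genes are neighbours on chromosome 11. Stat5b lies at chr11:100780731-100850724 on the minus strand, Stat5a at chr11:100859351-100885169 on the plus strand and Stat3 at chr11:100885098-100939540 on the minus strand. Stat2 (chr10:128270559-128292849) and Stat6 (chr10:127642986-127660957) share chromosome 10, both on the plus strand. Jak1 is at chr4:101152367-101265282 on the minus strand. Jak2 (chr19:29251828-29313080), Jak3 (chr8:71676296-71690575) and Stat4 (chr1:51987148-52107189) are on the plus strand. Some reads may not belong to a single gene. Of the 50-base stretches in Stat5a transcripts, 15.8% also occur in Stat5b, and 11.8% of those in Stat5b occur in Stat5a, so the split between these paralogs is uncertain. The stretches were compared in the longest coding transcript of each gene, in its own orientation only, and no other pair of the 9 shared one. Jak3 shares 404 exonic bases (7.55%) with Insl3 on the same strand, and Stat4 shares 1033 (26.7%) with Gm28177. Stat3 and Stat5a overlap by 72 exonic bases on opposite strands, Stat6 and Nab2 by 40, and Jak1 and Raver2 by 4. Whether the counting used strand was not given in the sources used here.

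Markers of other cells were summed to see what else the sorted populations held. The 8 CD8 T cell markers summed to 2013 to 2687 FPKM in cultured and 3607 to 3615 FPKM in naive libraries. The 4 CD4 T cell markers summed to 16.5 to 17.4 FPKM in IL-2, 8.14 to 11.5 FPKM in cocktail and 7.74 to 9.41 FPKM in naive libraries. Most of that was Zbtb7b in cultured cells (15.03 FPKM in IL-2 and 0.234 FPKM in naive cells) and Cd40lg in naive cells (7.80 FPKM), while Foxp3 had 1.51 FPKM in IL-2 cells and Cd4 at most 0.305 FPKM in any population. The 7 B cell markers summed to 42.5 to 44.1 FPKM in naive libraries and 2.09 to 6.84 FPKM in cultured libraries, where Ms4a1 and Pax5 were at 0. The 14 markers of dendritic cells and macrophages summed to 135 to 137 FPKM in IL-2 libraries, 157 to 203 FPKM in cocktail libraries and 182 to 185 FPKM in naive libraries, with Clec9a at 0 in cultured cells. Cst3 made up most of the sum in cultured cells (129 FPKM in IL-2, 145.5 FPKM in cocktail CD44+CD62L- and 64.2 FPKM in naive cells). Without Cst3, a sum added after seeing the data, the other 13 gave 6.59 to 7.12 FPKM in IL-2, 49.1 to 58.3 FPKM in cocktail and 116 to 121 FPKM in naive libraries. Lyz2 of that list had 0.427 FPKM in IL-2 and 21.3 FPKM in cocktail CD44+CD62L- cells. The 4 NK cell markers summed to at most 1.89 FPKM. Markers of erythroid cells, platelets and neutrophils summed to 24.4 to 28.4 FPKM in naive, 0.0894 to 0.273 FPKM in IL-2 and 1.45 to 5.39 FPKM in cocktail libraries.

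All 9 genes were expressed in every library. Levels are in FPKM, fragments scaled to transcript length and to the size of the library. The FPKM of all entries summed to 669341 to 781949 per library, so comparisons between libraries still rest on the scaling. Comparisons between genes are limited by the reads that genes may share, as given above. Group means ran from 16.6 FPKM for Stat5a in IL-2 cells to 263 FPKM for Jak1 in naive cells. Those means lay above 78.8% and 98.8% of all entries. The coefficient of variation between the 3 libraries of a group ran from 0.228% to 3.27%, with a median of 0.966%. Of the 36 neighbouring pairs in the orders of group means, 4 had overlapping libraries. These were Stat5a between cocktail CD44+CD62L- and IL-2 cells, Stat5b between the 2 cocktail CD44+ populations, and Stat6 between IL-2 cells and each cocktail CD44+ population. In the other pairs the libraries did not overlap, but some steps were no larger than the range within a population. The same count was not made over all genes. Technical replicates vary little, so a lack of overlap, here and below, is not read as particular to these 9. For Stat3 the cocktail CD44+CD62L+ and CD44loCD62L+ means differed by less than the CD44+CD62L+ libraries did among themselves (limma adjusted p = 0.0946). The same held for Stat2 between the cocktail CD44+ populations (limma adjusted p = 0.298). The plot of levels by library shows naive cells at an extreme for 7 of the 9 genes. IL-2 cells had the lowest group mean for all genes but Stat2 and Stat6.

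**Figure D1:**
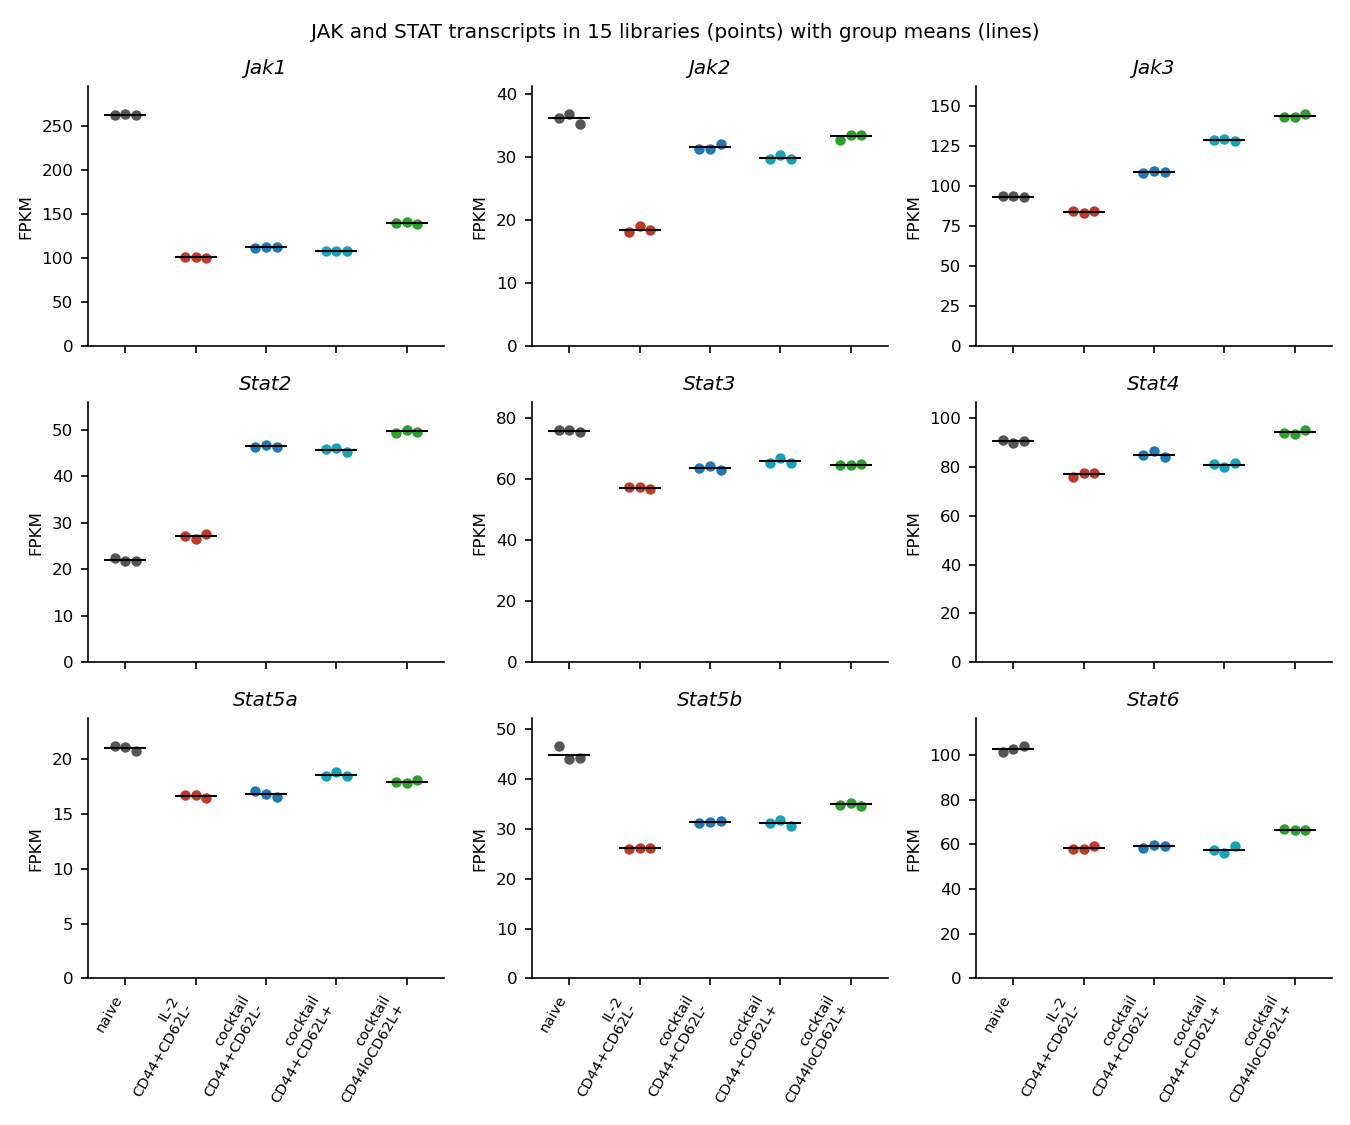
Level of each of the 9 genes in FPKM (vertical axes, each from 0) in the 15 libraries, grouped by population (horizontal axes); points are single libraries and lines are group means. Jak1 stands at 263 FPKM in naive cells and near 101 FPKM in IL-2 cells, while Stat2 is lowest in naive cells at 22.1 FPKM.

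Jak1, the kinase that nearly every cytokine receptor family in T cells uses, was the most variable of the 9 across the populations. Its highest group mean was 2.60 times its lowest. The naive libraries measured 263, 264 and 263 FPKM (263 ± 0.675, SD, n = 3), and the IL-2 libraries 101, 101 and 100.4 FPKM (101 ± 0.511, SD, n = 3). Cocktail CD44+CD62L- libraries gave 112, 112 and 113 FPKM, and each of the CD44+CD62L+ libraries gave 108 FPKM. The CD44loCD62L+ libraries gave 139.7, 141 and 139 FPKM. Naive libraries were far above all others, CD44loCD62L+ libraries came next, and no population overlapped another. Against naive cells Jak1 fell by 1.37 (log2, SE 0.00799) in IL-2 cells, by 1.22 in cocktail CD44+CD62L- cells and by 1.28 in CD44+CD62L+ cells. The adjusted p of limma, a linear model fitted across all genes, was 1.44e-20, 6.44e-20 and 3.74e-20. In CD44loCD62L+ cells the difference was -0.91 (limma adjusted p = 1.87e-18), which missed the minimum fold.

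Jak3, the kinase docked on the common gamma chain, had its own order. Cocktail CD44loCD62L+ libraries were highest at 143, 143 and 145 FPKM (144 ± 1.05, SD, n = 3). CD44+CD62L+ libraries gave 129, 129 and 128 FPKM, and cocktail CD44+CD62L- libraries gave 108, 109.5 and 109 FPKM. Naive libraries gave 93.9, 93.6 and 93.1 FPKM, and IL-2 libraries were lowest at 84.5, 83.0 and 84.4 FPKM. All 3 cocktail populations lay above naive and IL-2 cells without overlap. The difference of CD44loCD62L+ from naive cells was 0.62 (log2, limma adjusted p = 6.92e-16). Between cocktail CD44+CD62L- and IL-2 cells it was 0.37 (SE 0.00957, limma adjusted p = 3.28e-13). Neither reached the minimum fold.

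Jak2, which serves receptors such as those for IL-12 and interferon gamma, was the least expressed of the 3 kinases in every population. The IL-2 libraries stood apart at 18.1, 19.0 and 18.3 FPKM (18.5 ± 0.489, SD, n = 3). Cocktail CD44+CD62L- libraries gave 31.3, 31.3 and 32.1 FPKM, CD44+CD62L+ libraries 29.7, 30.3 and 29.6 FPKM, and CD44loCD62L+ libraries 32.7, 33.6 and 33.5 FPKM. Naive libraries were highest at 36.2, 36.8 and 35.3 FPKM. The 4 populations other than IL-2 cells lay close together, and no 2 populations overlapped. Jak2 in cocktail CD44+CD62L- cells differed from IL-2 cells by 0.74 (log2, SE 0.0211, limma adjusted p = 8.95e-13). IL-2 cells differed from naive cells by -0.93 (limma adjusted p = 2.12e-14). Both values were short of the minimum fold.

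Stat2, a part of ISGF3, the transcription complex of type I interferon, was the only one of the 9 that rose. Naive libraries gave 22.5, 21.9 and 21.7 FPKM (22.1 ± 0.416, SD, n = 3), and IL-2 libraries 27.1, 26.5 and 27.6 FPKM (27.1 ± 0.537, SD, n = 3). Cocktail CD44+CD62L- libraries gave 46.4, 46.7 and 46.2 FPKM, and CD44+CD62L+ libraries 45.9, 46.0 and 45.2 FPKM. CD44loCD62L+ libraries were highest at 49.4, 49.97 and 49.6 FPKM. The 3 cocktail populations formed a high group, and IL-2 and naive libraries were low without overlapping each other. Against naive cells Stat2 rose by 1.04 (log2, SE 0.0162) in cocktail CD44+CD62L- cells, 1.02 in CD44+CD62L+ cells and 1.14 in CD44loCD62L+ cells. The limma adjusted p was 5.17e-16, 6.41e-16 and 2.94e-16. With a pseudocount of 5 FPKM instead of 1, the first 2 values were 0.93 and 0.91, under the minimum fold. IL-2 cells differed from naive cells by 0.28 (limma adjusted p = 7.15e-10). Cocktail CD44+CD62L- cells differed from IL-2 cells by 0.76 (limma adjusted p = 4.86e-14), also short of the minimum.

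Stat6, which carries the signal of IL-4, was high in naive cells at 101, 103 and 104 FPKM (103 ± 1.21, SD, n = 3). IL-2 libraries gave 58.1, 58.0 and 59.1 FPKM, cocktail CD44+CD62L- libraries 58.5, 59.7 and 59.1 FPKM, and CD44+CD62L+ libraries 57.3, 55.9 and 59.1 FPKM. CD44loCD62L+ libraries gave 66.8, 66.6 and 66.2 FPKM. The 3 CD44+ populations could not be separated in a single order, CD44loCD62L+ cells lay above them, and naive cells above all. Differences from naive cells were -0.80, -0.79, -0.83 and -0.62 (log2) in IL-2, cocktail CD44+CD62L-, CD44+CD62L+ and CD44loCD62L+ cells. They had limma adjusted p from 1.13e-14 to 3.72e-13 and did not reach the minimum fold.

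Stat5a and Stat5b are paralogs that carry the signals of IL-2 and IL-7. Stat5b gave 46.6, 44.0 and 44.1 FPKM in naive libraries (44.9 ± 1.47, SD, n = 3) and 26.0, 26.1 and 26.2 FPKM in IL-2 libraries (26.1 ± 0.0979, SD, n = 3). Cocktail CD44+CD62L- libraries gave 31.3, 31.4 and 31.6 FPKM, CD44+CD62L+ libraries 31.3, 31.7 and 30.6 FPKM, and CD44loCD62L+ libraries 34.9, 35.3 and 34.7 FPKM. Stat5b was thus lowest in IL-2 cells and highest in naive cells, with no overlap of either with the cocktail populations. Stat5a moved less, from a group mean of 16.6 FPKM in IL-2 cells to 20.7 to 21.2 FPKM in the naive libraries, and its lowest library of all measured 16.4 FPKM. IL-2 and naive cells differed by -0.76 in Stat5b and by -0.32 in Stat5a (log2, limma adjusted p = 1.15e-13 and 1.69e-10). Cocktail CD44+CD62L- and IL-2 cells differed by 0.26 in Stat5b (limma adjusted p = 4.05e-08). For Stat5a that difference was 0.01 (limma adjusted p = 0.405), with overlapping libraries.

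Stat3 and Stat4 varied little. Stat3, which carries the signals of IL-21, IL-6 and IL-10, had group means of 57.2 ± 0.404 FPKM in IL-2 cells and 75.9 ± 0.400 FPKM in naive cells (SD, n = 3 each). The cocktail populations lay between them, at 63.7, 65.9 and 64.8 FPKM for CD44+CD62L-, CD44+CD62L+ and CD44loCD62L+. Stat4, which carries the signal of IL-12, had group means of 77.04 ± 0.880 FPKM in IL-2 cells and 94.2 ± 0.871 FPKM in CD44loCD62L+ cells (SD, n = 3 each). Naive cells had 90.5 FPKM of Stat4, and the cocktail CD44+CD62L- and CD44+CD62L+ populations 85.1 and 80.9 FPKM. The highest group mean was 1.33 times the lowest for Stat3 and 1.22 times for Stat4, the smallest span of the 9. The largest difference of Stat3 in the 7 comparisons was -0.40 (log2), between IL-2 and naive cells (limma adjusted p = 2.87e-13). For Stat4 it was -0.23 in the same comparison (limma adjusted p = 7.35e-10).

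The differences were tested in 7 comparisons on log2(FPKM + 1) over the 11242 genes that averaged 1 FPKM or more in some population, a scale that understates the change of low genes. A gene was called changed at an adjusted p under 0.05 and a log2 difference of at least 1 in size. The minimum fold was needed because 48.3% to 91.8% of all genes passed the p alone, as technical replicates vary little.

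Cocktail against IL-2 at the CD44+CD62L- gate asked what the culture condition did at a shared surface phenotype. None of the 9 genes changed, against 4.64% of all genes called higher and 3.2% called lower. By limma 7 of the 9 had an adjusted p under 0.05, beside 84.3% of all genes, and 7 an unadjusted p under 0.05. All 9 differences were above 0, from 0.01 for Stat5a to 0.76 for Stat2, with a median of 0.15 beside -0.01 for all genes. After quantile normalization the median of the 9 was 0.29. Stat2 and Jak2 were furthest apart between the conditions, and both would count as changed at a minimum fold of 1.5. So would 2467 of the 11242 genes tested, so that count is not a trait of these 9. Markers of dendritic cells and macrophages were also higher in these cocktail libraries than in IL-2 libraries. Their sum was 197 to 203 against 135 to 137 FPKM, and without Cst3 53.5 to 56.4 against 6.59 to 7.12 FPKM. Of the 9 tested, 4 rose, among them H2-Ab1 (0.622 to 13.7 FPKM), Cd74 (0.559 to 12.5 FPKM) and Lyz2, and 0 fell. Their part in the differences of the 9 JAK and STAT genes was not tested.

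Within the cocktail culture few genes of any kind were called, so a count of 0 is not a trait of these 9. Between CD44+CD62L+ and CD44+CD62L- cells 0 of 9 changed, against 0.0356% of all genes called higher and 0.0801% called lower. By limma 6 had an adjusted and 7 an unadjusted p under 0.05, beside 48.3% of all genes at the adjusted p. Jak3 differed most at 0.24 (limma adjusted p = 1.07e-09), in size above 90.3% of all genes tested, followed by Stat5a at 0.13 (limma adjusted p = 1.92e-05). The remaining 7 ran from -0.08 for Jak2 to 0.05 for Stat3. Between CD44loCD62L+ and CD44+CD62L+ cells 0 of 9 changed as well, against 0.418% of all genes called higher and 2.26% called lower. By limma 8 had an adjusted and an unadjusted p under 0.05, beside 73.4% of all genes at the adjusted p. Jak1 differed most at 0.37 (SE 0.00799, limma adjusted p = 1.26e-13), then Stat4 at 0.22 and Stat6 at 0.21. Stat3 (-0.02) and Stat5a (-0.05) were the only ones below 0, and Stat3 was 0.02 after quantile normalization.

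The 4 comparisons with naive cells share the naive libraries, so their values are given side by side and not as independent results. In IL-2 cells Jak1 fell and none rose, against 17.6% of all genes called higher and 13.7% called lower. In cocktail CD44+CD62L- cells Stat2 rose and Jak1 fell, against 13.9% higher and 8.59% lower. The same 2 genes passed in CD44+CD62L+ cells, against 14.4% higher and 8.44% lower. In CD44loCD62L+ cells Stat2 rose and none fell, against 11.6% higher and 6.11% lower. With 0 or 1 gene of 9 called in either direction, the counts were near these shares and say nothing particular about the 9 genes. Naive libraries also held more marker RNA of B cells and, without Cst3, of dendritic cells and macrophages than cultured libraries, as given above. The part of either in these differences was not tested. The median difference of the 9 was -0.40 in IL-2 cells, -0.25 in cocktail CD44+CD62L- cells, -0.20 in CD44+CD62L+ cells and -0.22 in CD44loCD62L+ cells. After quantile normalization it was -0.62, -0.31, -0.30 and -0.19. In each of these comparisons all 9 had a limma adjusted p under 0.05, beside 88.6% to 91.8% of all genes. Quantile normalization moved the median of all genes by -0.10 and -0.11 in cocktail CD44+CD62L- and CD44+CD62L+ cells against naive cells. In IL-2 against naive cells it moved the split of calls from 1981 higher and 1538 lower to 1638 and 1746, so that most calls were lower. The split went from 1564 and 966 to 1331 and 1227 in cocktail CD44+CD62L- cells, from 1615 higher and 949 lower to 1345 and 1225 in CD44+CD62L+ cells, and from 1306 and 687 to 1094 and 880 in CD44loCD62L+ cells. Under it Stat2 still rose, by 1.03, 1.01 and 1.19 in the 3 cocktail populations, and Jak1 in CD44loCD62L+ cells reached -1.05.

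**Figure D2:**
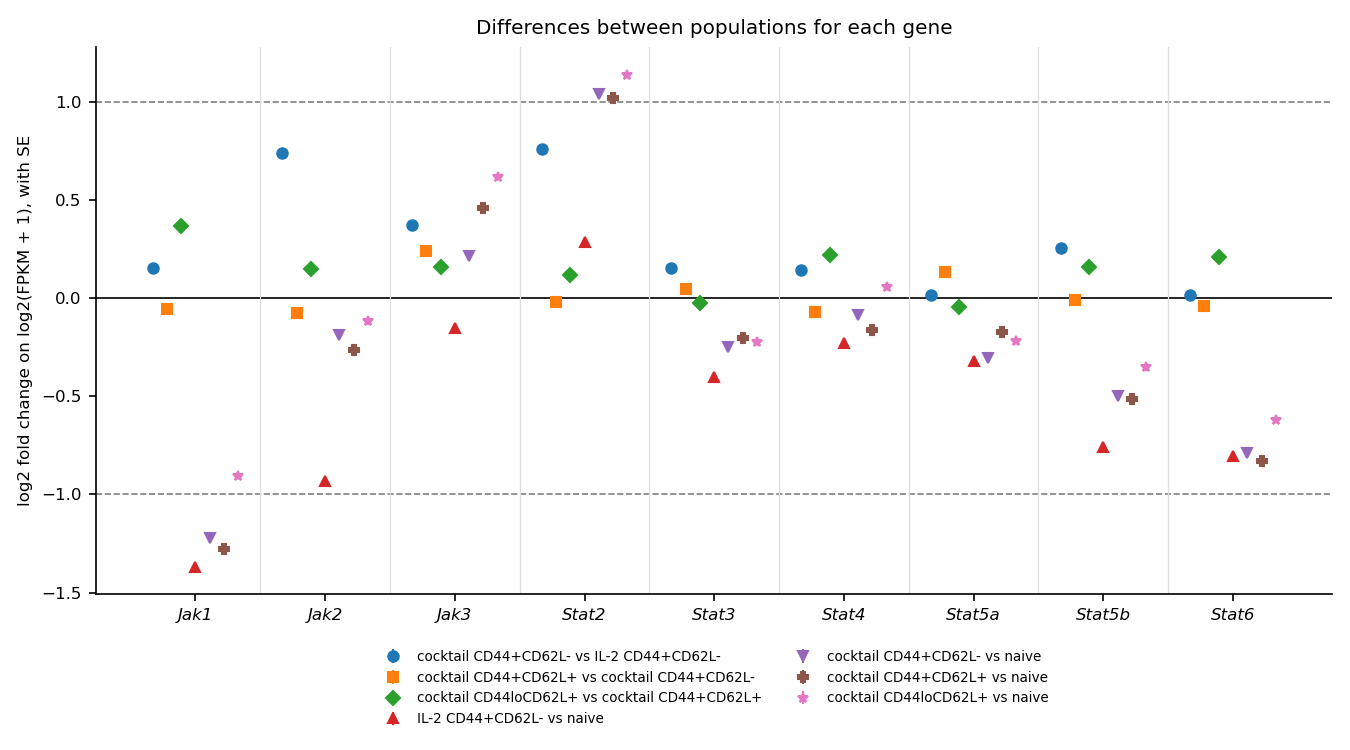
Log2 difference of each of the 9 genes (vertical axis) in the 7 comparisons, on log2(FPKM + 1), with the SE of the limma fit as error bars, which are smaller than the markers; dashed lines mark the minimum of 1 in size. Jak1 lies below -1 in 3 comparisons with naive cells and Stat2 above 1 in 3, and the comparisons among cultured cells stay within the lines.

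The balance within the family differed between populations. The ratio of Jak1 to Jak3 was 2.81 ± 0.0156 in naive cells and 1.20 ± 0.0152 in IL-2 cells (SD, n = 3 each). It was 1.03 ± 0.00937 in cocktail CD44+CD62L- cells, 0.838 ± 0.00442 in CD44+CD62L+ cells and 0.970 ± 0.0138 in CD44loCD62L+ cells. Jak3 RNA thus had a higher FPKM than Jak1 RNA in both cocktail CD62L+ populations, and no 2 populations overlapped in the ratio. Jak3 shares 7.55% of its exonic bases with Insl3, so the order of the 2 genes is uncertain where the ratio is 0.970. Jak1 made up 67.0% of the summed FPKM of the 3 kinases in naive cells, 49.7% in IL-2 cells and 40.5% in cocktail CD44+CD62L+ cells. The summed FPKM of the 3 kinases was 393 ± 1.44 in naive cells and 203 ± 0.446 in IL-2 cells. In the cocktail populations it was 253 ± 1.34 (CD44+CD62L-), 267 ± 1.14 (CD44+CD62L+) and 317 ± 1.08 (CD44loCD62L+).

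Among the STATs, Stat2 measured 0.215 ± 0.00655 times Stat6 in naive cells and 0.463 ± 0.00532 times in IL-2 cells (SD, n = 3 each). In cocktail cells the ratio of Stat2 to Stat6 was 0.786 ± 0.00562 (CD44+CD62L-), 0.797 ± 0.0294 (CD44+CD62L+) and 0.746 ± 0.00595 (CD44loCD62L+). The 2 CD44+ cocktail populations overlapped, and the other populations were separate. Stat2 took 6.17% of the summed FPKM of the 6 STATs in naive cells, 10.3% in IL-2 cells and 15.1% to 15.3% in the cocktail populations. The ratio of Stat5b to Stat5a was 2.14 ± 0.0598 in naive cells, 1.57 ± 0.0208 in IL-2 cells, and 1.87 ± 0.0402, 1.68 ± 0.0189 and 1.95 ± 0.0306 in the cocktail CD44+CD62L-, CD44+CD62L+ and CD44loCD62L+ cells. That ratio rests on the uncertain split of reads between the paralogs. The summed FPKM of the 6 STATs was lowest in IL-2 cells (262 ± 1.18) and highest in naive cells (357 ± 1.56).

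**Figure D3:**
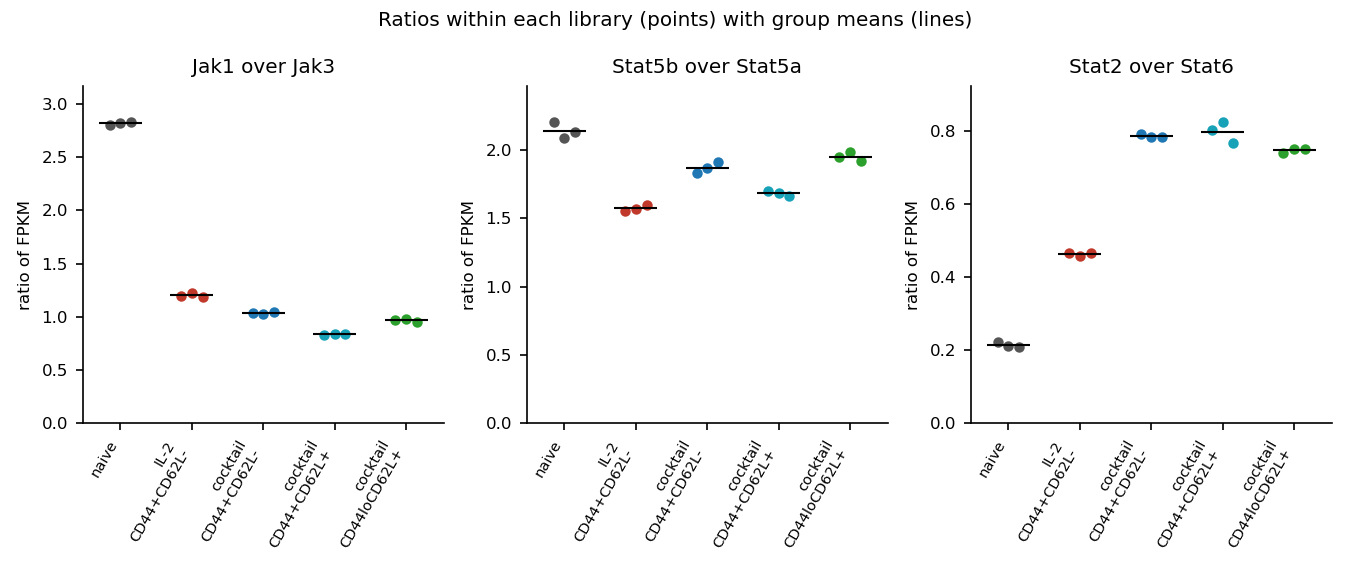
Ratios of FPKM between members (vertical axes) in each library (points) with group means (lines), by population (horizontal axes). Jak1 to Jak3 drops from 2.81 in naive cells to 0.838 in cocktail CD44+CD62L+ cells, and Stat2 to Stat6 is lowest in naive cells at 0.215.

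Of the 9 genes, Jak1 and Stat2 had group means that spanned at least 1 on the log2 scale, and for these the most similar genes were looked up among 7099 candidates. Likeness was Pearson's r of log2(FPKM + 1) over the 15 libraries, which share their 5 populations, so it is a description. Jak1 was most like Rpl12, a ribosomal protein gene (r = 0.9993), and Nufip2 (r = 0.9989). Stat2 was most like Usp18 (r = 0.9982), an interferon-induced inhibitor of the type I interferon receptor, and Slc2a3 (r = 0.9978), a glucose transporter. Usp18 measured 23.3 FPKM in naive, 30.4 in IL-2 and 62.5, 61.5 and 72.7 FPKM in cocktail CD44+CD62L-, CD44+CD62L+ and CD44loCD62L+ cells.

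The remaining genes of the pathway give the setting of the 9 in cocktail against IL-2 cells at the CD44+CD62L- gate. Tyk2, the remaining JAK, had 28.7 FPKM in IL-2 and 25.8 FPKM in cocktail cells, a difference of -0.15 (log2, limma adjusted p = 1.25e-06). Irf9, which joins Stat2 in ISGF3, had 44.7 FPKM in IL-2 and 69.99 FPKM in cocktail cells, a difference of 0.64 short of the minimum fold. Irf9 had 71.5 FPKM in naive cells, where Stat2 was lowest, so the 2 genes differ in their order of populations.

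Of 18 tested receptor chains that bind JAKs, 5 rose and 2 fell, with a median of 0.71. In this comparison 4.64% of all genes were called higher and 3.2% lower, which is the background for this and the following lists. Il7r, the IL-7 receptor chain, rose by 1.81, and Ifnar2, a chain of the type I interferon receptor, by 1.27. The IL-2 receptor chains Il2ra and Il2rb fell by 1.68 and 1.28, from 234.7 to 72.6 FPKM and from 749 to 307 FPKM. Of 19 inhibitors 2 rose, Sh2b3 (1.91) and Usp18 (1.02), and 1 fell, Socs2 (-1.83), with a median of 0.14. Socs2 is itself induced by Stat5.

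Target lists of single STATs did not move one way. Of 14 genes known as STAT5 targets, Bcl2, which protects cells from death, rose by 1.80, and Prf1 (-2.72), Socs2, Pim1 and Il2ra fell. Gzmb, also on the list, was called higher but is listed at 0 in all IL-2 libraries, so no fold is given, and a failed estimate in those libraries is possible. The median was -0.10 with Gzmb, 0.06 after quantile normalization, and -0.24 without Gzmb. Of 13 STAT3 targets Vegfa rose (2.76) and Il10 (-4.11), Prdm1 (-2.25), Pim1 and Maf fell, with a median of -0.08. Of 8 STAT4 targets Irf1 rose (1.39) and Ifng fell (-2.54), with a median of -0.44. Of 5 STAT6 targets Il4ra rose (1.24), with a median of 0.13 that was -0.02 after quantile normalization. Of 13 targets and partners of the Stat2 complex, Usp18 rose (1.02) and Oas2 fell (-1.02), with a median of 0.43. Between the cocktail CD44+ populations no gene of these lists changed, and CD44loCD62L+ cells differed from CD44+CD62L+ cells in Vegfa (1.04) and Ifit3 (1.20).

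Against naive cells the list of the Stat2 complex had 4 genes that rose and 0 that fell in IL-2 cells. It had 6 and 1 in each cocktail CD44+ population and 8 and 0 in CD44loCD62L+ cells, with medians of 0.44, 0.91, 0.67 and 1.57, out of 13 genes each time. Over all genes 11.6% to 17.6% were called higher and 6.11% to 13.7% lower in these comparisons. In IL-2 against naive cells the genes of that list ran from -0.80 for Oasl2 to 3.81 for Mx1, and Stat2 differed by 0.28. Mx1, an antiviral gene, measured 7.61 FPKM in naive and 119 FPKM in IL-2 cells. Of the receptor chains, 6 rose and 6 fell in IL-2 cells, and 6 or 7 rose and 5 fell in the cocktail populations. Of the 13 STAT5 targets without Gzmb, 6 rose and 1 fell in IL-2 cells, and 7 rose and 1 or 2 fell in the cocktail populations. Of 8 STAT4 targets 6 rose and 0 or 1 fell in each population, with medians of 2.33 to 3.40. Of 13 STAT3 targets 5 rose and 4 fell in IL-2 cells, and 2 rose and 2 to 5 fell in the cocktail populations. Of 5 STAT6 targets 2 or 3 rose and 0 or 1 fell. Of 19 inhibitors 3 or 4 rose and 2 or 4 fell. These lists overlap each other and hold genes that other factors also control.

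**Figure D4:**
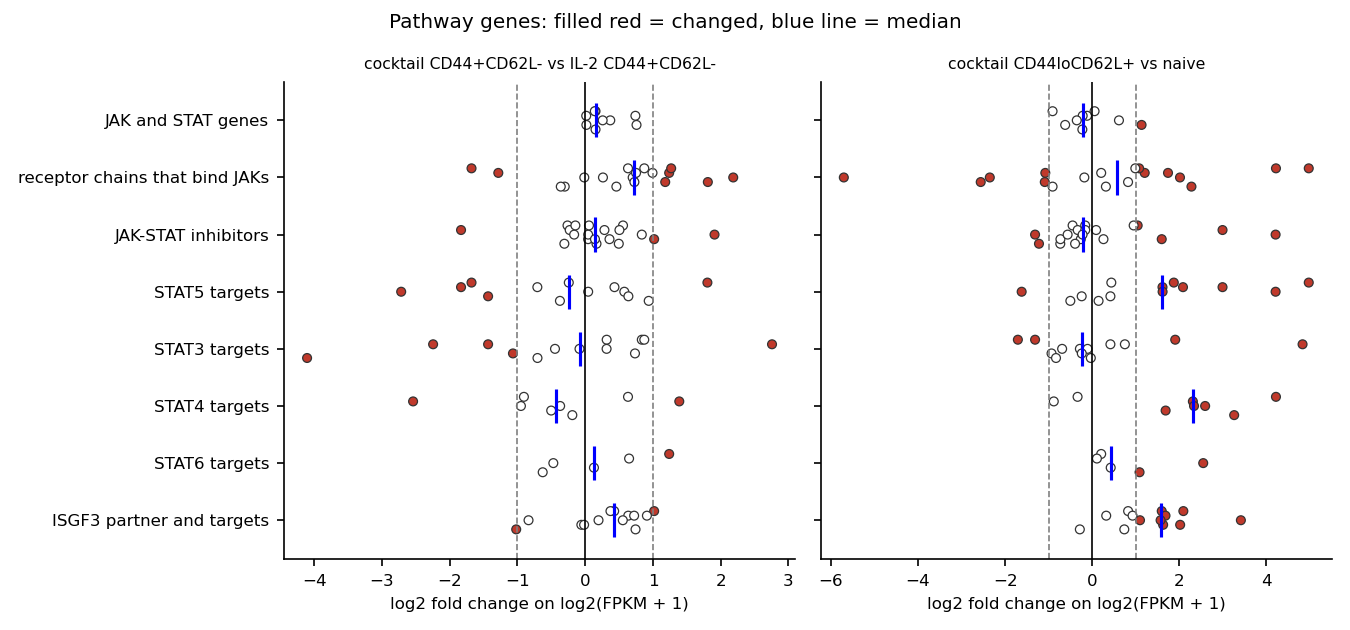
Log2 difference (horizontal axes) of single genes (points, red where changed) of each pathway list (vertical axis), with the median as a blue line and dashed lines at 1 in size, for cocktail against IL-2 cells at the CD44+CD62L- gate (left) and CD44loCD62L+ against naive cells (right); ISGF3 is the interferon complex that holds Stat2 and Irf9, and Gzmb is left out because it is listed at 0 in IL-2 cells. On the left the 9 JAK and STAT genes lie between 0.01 and 0.76, while receptor chains and STAT targets reach past 1 on both sides.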

How the data were processed

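The submitters' processing notes name TopHat2 2.0.9, Cuffdiff 2.1.1 and the genome build mm10, and the names were taken without a role or order. The deposited FPKM values were used as the authors normalized them. The absolute depth is unknown. Low values were whole multiples of a common step (within 0.05) for 69.1% of 19621 ratios, where chance gives 10%, so reads were not recovered. By those steps the libraries differed in depth by at most 1.26 times. The CD44loCD62L+ libraries were deepest, at 1.24 to 1.26 times the first naive library, so depth went with population. Its part in the values of the 9 genes was not tested.

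Groups came from the labels. limma 3.58.1 in R 4.3.3 was fitted to log2(FPKM + 1) of all 15 libraries with a mean-variance trend, on genes that averaged 1 FPKM or more in some population. P-values were adjusted by Benjamini-Hochberg over all genes within a comparison. The fit was tested on simulated data for 1 comparison, cocktail against IL-2 cells at the CD44+CD62L- gate. Python 3.11.15 and matplotlib 3.10.9 served for descriptions and plots. The members and lists were chosen with earlier results of these data known. All 9 genes are reported, and 1 gene of the pathway lists is not reported here. From each list the 2 highest and 2 lowest genes of cocktail against IL-2 at 5 FPKM or more were eligible to be named. Elsewhere those that changed were eligible where they were 5 or fewer. Tyk2, Irf9, Mx1, Oasl2 and the markers named were chosen after their values were seen. Alternatives were other pseudocounts, filters, scalings, minimum folds, fits and the omission of each library.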

Additional observations from a re-analysis of the deposited data

How the results depend on the processing

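The number of the 9 genes that changed was 0, 0, 0, 1, 2, 2 and 1 in the comparisons in the order given in the report. Those 7 counts stayed within 1.5 times under the other filters, median-ratio scaling, no trend, a pseudocount of 0.1 and the fit on 6 libraries. They were also the same when any 1 library was left out, ranging from 0 to 0, 0 to 0, 0 to 0, 1 to 1, 2 to 2, 2 to 2 and 1 to 1. Levels showed no pairing by replicate number (30 same-numbered pairs, correlation of deviations -0.238 to 0.184, median -0.01), and a replicate block gave 0, 0, 0, 1, 2, 2 and 1. Relative depth did follow the number, with replicate 2 deepest and replicate 1 least deep in every population. A pseudocount of 5 gave 1 in cocktail CD44+CD62L- and 1 in CD44+CD62L+ cells against naive cells. Quantile normalization gave 2 in IL-2 and 2 in CD44loCD62L+ cells against naive cells, where Stat6 (-1.03) and Jak1 (-1.05) passed. A minimum fold of 1.5 gave 2 in cocktail against IL-2 cells, 4 in IL-2 against naive cells and 4 in CD44loCD62L+ against naive cells. With no minimum fold the counts were 7, 6, 8, 9, 9, 9 and 9. Stat5b between the cocktail CD44+ populations was 0.00323 without cocktail CD44+CD62L+ replicate 3 and -0.0226 without replicate 2, against -0.01, and Stat3 between CD44loCD62L+ and CD44+CD62L+ cells was 0.0179 after quantile normalization, against -0.02. The cause was not tested.

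Over all genes, changed counts were 882, 13, 301, 3519, 2530, 2564 and 1993. At a minimum fold of 1.5 they were 2467, 71, 974, 6020, 4913, 4888 and 4040, and without one 9479, 5432, 8251, 10321, 10192, 10198 and 9956. A pseudocount of 5 gave 379, 7, 178, 2038, 1393, 1412 and 1014, and 0.1 gave 1393, 41 and 495 in the first 3. Because the replicates are technical, the spread between mice or cultures cannot be seen.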
